A study of Mus musculus with 25 samples.

Results

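Inflammasome sensors and effectors were followed here as 10 named mouse genes: the sensors Nlrp1a, Nlrp1b, Nlrp3, Nlrc4 and Aim2, the adaptor Pycard, the protease Casp1, the pore former Gsdmd and the cytokines Il1b and Il18. They were taken by name from a table of 30749 genes, all 10 had a row, and all 10 passed the filter on low values used for testing. The table covers RNA sequencing of macrophages sorted from mouse glioblastomas in 21 libraries. Monocyte-derived macrophages (MDM, macrophages that enter the tumour from the blood) gave 9 libraries: 2 from type 2 transplanted tumours, 1 from a type 2 spontaneous tumour, 4 from type 1 transplanted tumours and 2 from type 1 spontaneous tumours. Microglia, the resident macrophages of the brain, gave 12 libraries, 3 from each of the same 4 tumour classes. The series title describes the tumours as lineage-based mouse models. The labels give neither the alleles that drive type 1 and type 2 tumours nor a mouse strain, an age, a sort gate or a treatment. Whether replicates came from different animals is not stated, and the p-values below cover no more than the spread among these libraries, which may be technical. The labels also list 4 microglia samples from normal brain, which were not analysed here.

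Inflammasomes are protein complexes that form when a cytosolic sensor meets a microbial product or a sign of cell damage. The sensor recruits caspase-1, often through the adaptor ASC encoded by Pycard, and caspase-1 then cleaves the precursors of the cytokines IL-1β and IL-18 and opens gasdermin D, whose fragment makes pores in the membrane. Macrophages and microglia are the main producers of these cytokines in the brain, and NLRP3 is the sensor studied most in both. The libraries measure mRNA, so cleavage and secretion are outside what they show.

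Library depth was 26530069 to 50365607 reads. A normalised count below is the read count divided by the library's size factor. MDM libraries carried the monocyte marker Ccr2 at 6390.3 to 56757 normalised counts, against 37.1 to 2691 in microglia libraries, and the microglial marker Tmem119 at 852 to 33666, against 108973 to 245104. By Ccr2 and Tmem119 the libraries separated by label, and MDM libraries also held microglial transcripts. Of 14 listed T and NK cell markers, 13 were in the table and all 13 had counts in MDM libraries. Their summed level was 204957 to 243547 in 5 MDM libraries (the 4 type 1 transplanted ones and type 2 transplanted replicate 1), 9444 to 32905 in the other 4 MDM libraries and 115 to 5042 in microglia. Those 5 were not alike. The T cell gene Cd3e had 11984 to 27570 normalised counts in the 4 type 1 transplanted ones but 524 in type 2 transplanted replicate 1, within the 40.7 to 1785 of the other 4. The NK cell gene Ncr1 had 6757 to 15223, 27257.5 and 190 to 3229 there, in the same order. The summed level of 10 microglial markers was 11494 to 30076 in those 5 MDM libraries and 91267 to 231967 in the other 4. The 10 monocyte-derived macrophage markers summed to 91443 to 171334 in those 5 libraries, below the T and NK cell sums there. In the other 4 they summed to 125759 to 490751. B cell markers followed, with summed levels of 19275 to 46266 in those 5 libraries and 2352 to 5070 in the other 4. The 8 dendritic cell markers, of which Siglech is also a microglial marker, summed to 14427 to 62701 in MDM and 9310 to 57223 in microglia. Of their defining genes, Flt3 had 794 to 8525 normalised counts in MDM and 0 to 416 in microglia. Zbtb46 had 403 to 1784 in MDM and 3.22 to 187 in microglia. Neutrophil markers summed to 1454 to 14806 in MDM and 10240 to 27744 in microglia libraries. The defining neutrophil gene Ly6g had no read in 4 of 9 MDM and 9 of 12 microglia libraries. Ngp, the other defining neutrophil gene, had no read in 4 of 9 MDM and 5 of 12 microglia libraries. It reached 403 normalised counts in MDM and 2270 in microglia libraries. The 5 libraries rich in T and NK cell transcripts stood apart. The comparison of MDM with microglia is plotted for every member with and without them. Leaving them out removes every type 1 transplanted MDM library. That class and its microglia then drop out of the comparison, so the fits with and without them average different tumour classes. Values without them are printed below for some members and pathway genes only. In bulk libraries fewer cells of a type and less RNA per cell cannot be told apart.

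Per kilobase of exon, the adaptor, protease and pore former had higher levels than the sensors. The length was that of all annotated exons of a gene joined, 3800 bases for Pycard and 1497 for Casp1, and not that of the transcript in use. The order of genes depends on this choice. Before division by length, the MDM medians were 7838 for Pycard and 3097 for Casp1. In MDM libraries Gsdmd had the highest median at 3377 normalised counts per kilobase, followed by Casp1 at 2069, Pycard at 2063 and Il1b at 1921. In microglia libraries Pycard led at 3531, with Gsdmd at 3043, Casp1 at 1922, Il18 at 1224 and Il1b at 1183 normalised counts per kilobase. The ranges of these genes overlapped within each cell type: MDM libraries spanned 2349 to 8672 for Gsdmd and 1270 to 5202 for Casp1. On this per-kilobase measure Il1b was above Gsdmd, Casp1 and Pycard in 4 of the 9 MDM libraries, the 3 of type 2 tumours and type 1 spontaneous replicate 2. Sensors were scarcer. Aim2, which binds double-stranded DNA, was the most abundant sensor, with a median of 388 normalised counts per kilobase in MDM and 519 in microglia libraries. Nlrp3 had medians of 66.9 in MDM and 174 in microglia libraries, and Nlrp1a, Nlrp1b and Nlrc4 had medians of 26.5, 42.0 and 41.2 in MDM libraries and 41.2, 56.9 and 1.46 in microglia libraries, all per kilobase. The Nlrp1a medians join separate groups: in transplanted tumour microglia it had a median of 118 and Nlrp1b of 78.2 per kilobase, and in spontaneous tumour microglia 2.01 and 46.9. The plot of all members by tumour class shows these levels for every library.

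**Figure D1:**
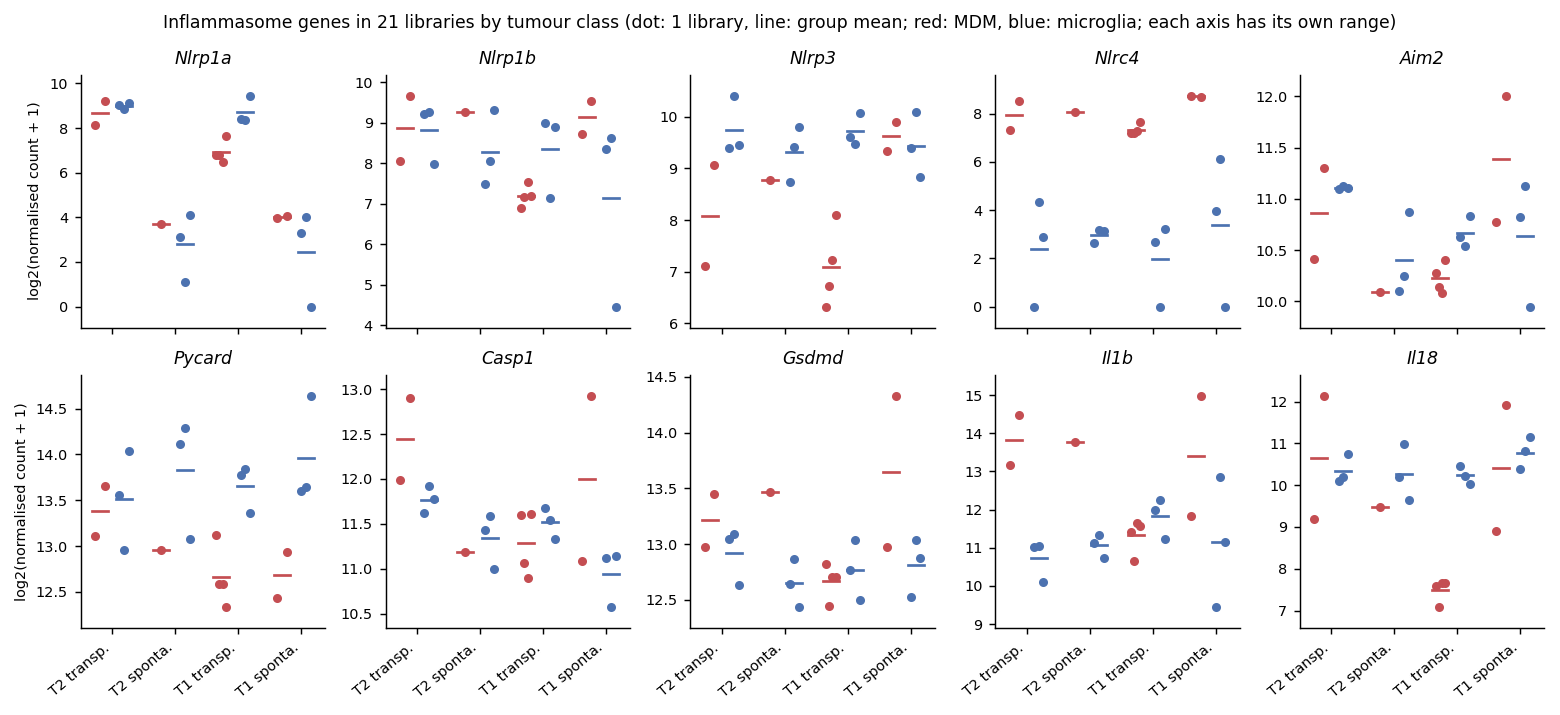
Level of each member as log2(normalised count + 1) in the 21 libraries, by tumour class (T1 and T2, type 1 and type 2; transplanted and spontaneous), with MDM in red left of microglia in blue; dots are libraries, lines are means, and each panel has its own axis range. Nlrc4 was above the microglia range in all 9 MDM libraries, and Nlrp1a was between 88.4 and 699 normalised counts in transplanted tumours, against 0 to 16.2 in spontaneous tumours.

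The first comparison asks whether the 2 macrophage lineages of the tumour carry the same inflammasome genes. In MDM, 5 of the 10 members passed an adjusted p under 0.05 (limma-trend on log2(normalised count + 1), Benjamini-Hochberg adjusted over 17216 genes, tumour classes weighted equally). Nlrc4, Il1b and Gsdmd were higher and Nlrp3 and Pycard were lower in MDM. Across all tested genes 42.7% were called, 23.0% higher and 19.8% lower, so 5 of 10 is near the background. The median log2 fold change over the 10 members was 0.21, against 0.07 over all tested genes.

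Nlrc4 separated the lineages most. NLRC4 assembles with NAIP proteins that bind flagellin and secretion-system parts of bacteria, and its gene lies on chr17:74425438-74459142 (GRCm38, minus strand). It had 161 and 372 normalised counts in type 2 transplanted MDM, 265 in type 2 spontaneous MDM, 147, 148, 152 and 198 in type 1 transplanted MDM and 428 and 411 in type 1 spontaneous MDM. Microglia libraries had 0 to 69.2, with a median of 7.01 and no read in 3 of 12. All 9 MDM libraries lay above all 12 microglia libraries. The log2 fold change was 5.33 ± 0.73 (SE), a 40.4-fold higher fitted level, with an adjusted p of 1.0e-05 by limma. Without the 5 MDM libraries rich in T and NK cell transcripts it was 5.53, with an adjusted p of 0.0037.

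Nlrp3, which responds to potassium efflux and other signs of damage, lies on chr11:59541568-59566956 (plus strand) and went the other way. It had 137 and 533 normalised counts in type 2 transplanted MDM, 439.5 in type 2 spontaneous MDM, 79.2, 105, 148 and 272 in type 1 transplanted MDM and 647 and 951 in type 1 spontaneous MDM. Microglia libraries had 426 to 1358, with a median of 706. The 5 MDM libraries rich in T and NK cell transcripts all lay below every microglia library, and the other 4 lay within the microglia range. Summed microglial markers were 11494 to 30076 in those 5 and 91267 to 231967 in the other 4, and their part in these levels was not tested. Leaving out those 5 libraries also takes the type 1 transplanted class out of the comparison. Over all libraries Nlrp3 was lower in MDM by a log2 fold change of -1.16 ± 0.30, with an adjusted p of 0.0041 by limma. Without those 5 libraries it was -0.35, with an adjusted p of 0.47, so the call ended; the part of T and NK cell transcripts in it was not tested.

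Aim2 (chr1:173350879-173466040, plus strand) did not pass the test between lineages. It had 1085 to 4116 normalised counts in MDM libraries, with a median of 1357, and 988 to 2238 in microglia libraries, with a median of 1817. The ranges overlapped, and the log2 fold change was -0.06 ± 0.20 (adjusted p 0.82 by limma). Nlrp1a and Nlrp1b did not pass either, at 0.09 ± 0.51 and 0.47 ± 0.49 on the log2 scale.

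Pycard (chr7:127989708-127993867, minus strand) encodes ASC, which links sensors to caspase-1. It had 5179 to 12866 normalised counts in MDM libraries, with a median of 7838, and 7934 to 25513 in microglia libraries, with a median of 13420. Most MDM libraries lay below most microglia libraries, but the ranges overlapped. Its log2 fold change was -0.82 ± 0.21 in MDM over microglia, with an adjusted p of 0.0037 by limma. Without the 5 libraries rich in T and NK cell transcripts it was -0.67, with an adjusted p of 0.13, so this call too ended.

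The executioners were close in level. Casp1 (chr9:5298517-5307265, plus strand), the protease of the complex, had 1902 to 7787 normalised counts in MDM libraries and 1525 to 3870.0 in microglia libraries, and did not pass the test (log2 fold change 0.34 ± 0.21, adjusted p 0.21 by limma). It was called without type 1 spontaneous MDM replicate 1 (0.57, adjusted p 0.011) and after rescaling all libraries to the same total (0.57, adjusted p 0.012). Gsdmd (chr15:75862327-75867408, plus strand) had 5583 to 20612 normalised counts in MDM libraries, with a median of 8027, and 5549.5 to 8733 in microglia libraries, with a median of 7233. Its log2 fold change was 0.46 ± 0.17, 1.38-fold higher in MDM, with an adjusted p of 0.033 by limma. Only 4 of the 9 MDM libraries are free of the high T and NK cell level, and over these the Gsdmd value was 0.73, with an adjusted p of 0.043. The Gsdmd call over all libraries ended when any of 6 libraries was left out: type 1 spontaneous MDM replicate 2 (adjusted p 0.11), type 2 spontaneous MDM (0.14), type 2 transplanted MDM replicate 3 (0.076), and type 1 spontaneous microglia replicate 1 (0.057), type 1 transplanted microglia replicate 4 (0.055) and type 2 transplanted microglia replicate 3 (0.056).

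The 2 cytokine genes differed from each other. Il1b (chr2:129364570-129371139, minus strand) had 9147 and 22720.5 normalised counts in type 2 transplanted MDM, 14011 in type 2 spontaneous MDM, 2719.8, 1614, 3223 and 3024 in type 1 transplanted MDM and 3663 and 32324 in type 1 spontaneous MDM. Microglia libraries had 701 to 7382, with a median of 2256. All 3 type 2 MDM libraries were above the microglia range, and all 4 type 1 transplanted MDM libraries were within it. The log2 fold change was 1.89 ± 0.42, 3.70-fold higher in MDM, with an adjusted p of 0.0012 by limma, and without the 5 libraries rich in T and NK cell transcripts it was 2.90, with an adjusted p of 0.0049. Its exons share 25 bases with the antisense gene Il1bos, and the labels do not say whether reads were counted by strand.

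Il18 (chr9:50554827-50581840, plus strand) did not pass the test between lineages. It had 582 and 4517 normalised counts in type 2 transplanted MDM, 716 in type 2 spontaneous MDM, 192, 135, 201 and 201 in type 1 transplanted MDM and 479 and 3871 in type 1 spontaneous MDM. Microglia libraries had 803 to 2271, with a median of 1262. MDM libraries lay both below and above the microglia range, 7 below it and 2 above it. The log2 fold change was -0.90 ± 0.38 (adjusted p 0.063 by limma), and 0.21 without the 5 libraries rich in T and NK cell transcripts. Leaving out either high library gave a call: -1.27 in both cases, with an adjusted p of 0.0044 without type 1 spontaneous MDM replicate 2 and 0.0045 without type 2 transplanted MDM replicate 3.

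**Figure D2:**
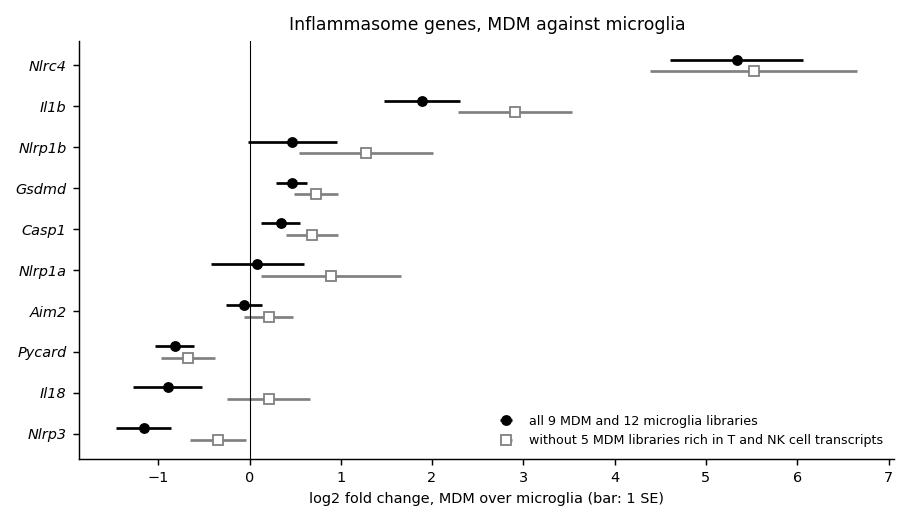
Log2 fold change of each member in MDM over microglia with 1 SE, for all 21 libraries (black circles) and without the 5 MDM libraries rich in T and NK cell transcripts (open squares). The open squares average only the tumour classes other than type 1 transplanted, which has no MDM library left. Nlrc4 stayed at 5.33 and 5.53, Il1b went up to 2.90 without those libraries, against 1.89 with all, and Nlrp3 came to -0.35, against -1.16.

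Within single tumour classes the counts of members called were 2 of 10 in type 2 transplanted tumours (18.0% of all genes), 0 of 10 in type 2 spontaneous tumours (10.7%), 4 of 10 in type 1 transplanted tumours (34.1%) and 2 of 10 in type 1 spontaneous tumours (13.4%). The type 2 spontaneous comparison has 1 MDM library, whose spread is taken from the other groups, and 2 members had an unadjusted p under 0.05 there, as did 4168 of all 17216 tested genes. Nlrc4 had a log2 fold change of 5.54 in type 2 transplanted, 5.08 in type 2 spontaneous, 5.37 in type 1 transplanted and 5.35 in type 1 spontaneous tumours, with adjusted p-values of 0.011, 0.078, 0.0015 and 0.018 by limma. Il1b had a log2 fold change of 3.10 in type 2 transplanted, 2.71 in type 2 spontaneous, -0.51 in type 1 transplanted and 2.25 in type 1 spontaneous tumours, with adjusted p-values of 0.013, 0.10, 0.60 and 0.070. With the replicate block the type 1 spontaneous value was also called (adjusted p 0.042). The type 2 transplanted call ended without type 2 transplanted MDM replicate 3 (2.44, adjusted p 0.11). In type 1 transplanted tumours Nlrp3 was lower by a log2 fold change of -2.62 ± 0.48 (adjusted p 0.00032), Il18 by -2.74 ± 0.61 (adjusted p 0.0017) and Pycard was 2.001-fold lower (adjusted p 0.027). All 4 MDM libraries of that class are rich in T and NK cell transcripts, so the lineage and those transcripts cannot be told apart there. Pycard was also lower in type 1 spontaneous tumours (-1.27 ± 0.40, adjusted p 0.043). Several of these calls ended when 1 library was left out. Nlrc4 in type 2 transplanted tumours lost its call without either MDM library or microglia replicate 1 of that class (adjusted p at most 0.073), and in type 1 spontaneous tumours without either MDM library or microglia replicate 3 (at most 0.15). Pycard in type 1 transplanted tumours lost its call without MDM replicates 2, 3 or 4 or microglia replicates 1 or 2 of that class (at most 0.095). Pycard in type 1 spontaneous tumours lost it without either MDM library or microglia replicate 3 of that class (at most 0.19), type 1 transplanted MDM replicates 2, 3 or 4, type 1 transplanted microglia replicates 1 or 2, or type 2 transplanted microglia replicate 1 (at most 0.056).

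The member that differed between tumour models in microglia was Nlrp1a. NLRP1 proteins are cleaved by pathogen proteases and held in check by the peptidases DPP8 and DPP9, and the mouse carries several copies of the gene, whose number and sequence are known to vary among inbred strains. In microglia of transplanted tumours Nlrp1a had 516, 465 and 556 normalised counts in type 2 and 335, 327 and 699 in type 1. In microglia of spontaneous tumours it had 7.79, 1.15 and 16.2 in type 2 and 8.93, 15.0 and 0 in type 1. The groups did not overlap. The log2 fold change was 6.26 ± 0.62, a 76.5-fold higher fitted level in transplanted tumours, with an adjusted p of 2.2e-05 by limma, and it was called with each of the 21 libraries left out in turn. It was the 1 member of 10 called, against 1.84% of all tested genes.

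MDM libraries followed the same split. Nlrp1a had 280.1 and 589 normalised counts in type 2 transplanted MDM and 110.4, 111, 88.4 and 201 in type 1 transplanted MDM, against 11.8 in type 2 spontaneous MDM and 14.7 and 15.6 in type 1 spontaneous MDM. Over both cell types the 12 libraries of transplanted tumours had 88.4 to 699 and the 9 of spontaneous tumours had 0 to 16.2. In the type 1 tumours, where MDM of both models have replicates, the log2 fold change was 2.92 ± 0.93 (adjusted p 0.043 by limma). That call held in 10 of 21 fits with 1 library left out, and the 4 transplanted libraries are all among those rich in T and NK cell transcripts while the 2 spontaneous ones are not. The fitted difference between the 2 cell types in their response to model was not called (-3.37 ± 1.27, adjusted p 0.15).

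Nlrp1a lies on chr11:71092236-71144704 (minus strand), next to Nlrp1b at chr11:71153102-71230733 and the transcribed pseudogene Nlrp1c-ps at chr11:71242430-71285232. The starts of Nlrp1a and Nlrp1b are near copies of each other and are shown because the adjoining genes behaved differently. Of 282 aligned bases in 300-base windows around the start, 253 were identical (89.7%). The second RefSeq start of Nlrp1b matched Nlrp1a at 147 of 235 aligned bases (62.6%). The 250 bases before each start used here, from RefSeq on GRCm38.p6, minus strand, are printed 5′ to 3′, Nlrp1a at chr11:71144705-71144954 and Nlrp1b at chr11:71230734-71230983. The whole RefSeq gene spans reach further upstream, to 71144969 for Nlrp1a and 71242514 for Nlrp1b, so the printed bases lie inside them. Capitals mark bases without an identical partner in the alignment, including the ends that extend past the other window.
Nlrp1a: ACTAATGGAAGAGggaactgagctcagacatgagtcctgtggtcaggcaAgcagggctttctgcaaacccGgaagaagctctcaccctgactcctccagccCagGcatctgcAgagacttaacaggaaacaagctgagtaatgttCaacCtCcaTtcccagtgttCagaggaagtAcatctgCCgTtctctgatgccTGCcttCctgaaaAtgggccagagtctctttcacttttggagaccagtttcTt
Nlrp1b: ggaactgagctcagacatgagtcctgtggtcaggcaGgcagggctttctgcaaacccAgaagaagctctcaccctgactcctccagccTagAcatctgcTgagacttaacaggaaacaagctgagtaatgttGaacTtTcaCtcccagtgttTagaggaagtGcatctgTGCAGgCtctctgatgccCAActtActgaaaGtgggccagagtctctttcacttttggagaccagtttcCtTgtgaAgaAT
Both hold GAGGAAGT, a core bound by PU.1-type factors, which a search of both strands also found in the 300-base windows of Aim2 and Pycard and in 3.2% of 32851 promoter windows. The interferon-stimulated response element, searched on both strands as a pair of GAAA runs 2 bases apart, was in no member's window and in 3.44% of all windows.

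Despite that likeness Nlrp1b did not pass the test by model. In microglia it had 593, 613 and 251 normalised counts in type 2 transplanted and 512, 140.1 and 474 in type 1 transplanted tumours, against 178, 267 and 631 in type 2 spontaneous and 325, 393 and 20.96 in type 1 spontaneous tumours. These ranges overlapped, and the log2 fold change was 0.87 ± 0.60 (adjusted p 0.44 by limma). Nlrp1c-ps, in contrast, moved like Nlrp1a, with 216 ± 85.4 normalised counts in transplanted and 1.95 ± 1.62 in spontaneous tumour microglia (SD, n = 6 each) and a log2 fold change of 6.33 ± 0.59 (adjusted p 1.4e-05 by limma). Nlrp1c-ps was examined after these values were seen.

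The 3 copies resemble each other, so their reads could be exchanged in counting. Of the 50-base words in Nlrp1a exons 2.07% recur in another copy, and of the 100-base words 0.07%. Nlrp1a took 24.95% to 54.1% of the reads of the 3 copies in the 12 libraries of transplanted tumours and 0% to 4.20% in the 9 of spontaneous tumours. With the 3 copies summed, transplanted tumour microglia had 665 to 1448 normalised counts, against 20.96 to 651 in spontaneous tumour microglia, and the log2 fold change was 2.34 ± 0.55 (adjusted p 0.036 by limma). In type 1 MDM the sum had the opposite sign, at -0.89 ± 0.82 (adjusted p 0.54). Of 31 genes of the table within 500 kilobases of Nlrp1a in RefSeq, itself included, 26 were tested and 4 were called in transplanted over spontaneous microglia: Nlrp1a, Nlrp1c-ps, the platelet receptor gene Gp1ba (3.16 ± 0.79, adjusted p 0.046) and the signalling adaptor gene Scimp (-1.53 ± 0.39, adjusted p 0.0496). These neighbours were also looked up after the Nlrp1a values were seen. The summed T and NK cell markers were 267 to 5042 in transplanted and 115 to 326 in spontaneous tumour microglia, and the summed monocyte-derived macrophage markers were 4933 to 17819 and 12089 to 58700; their part in the Nlrp1a split was not tested.

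**Figure D3:**
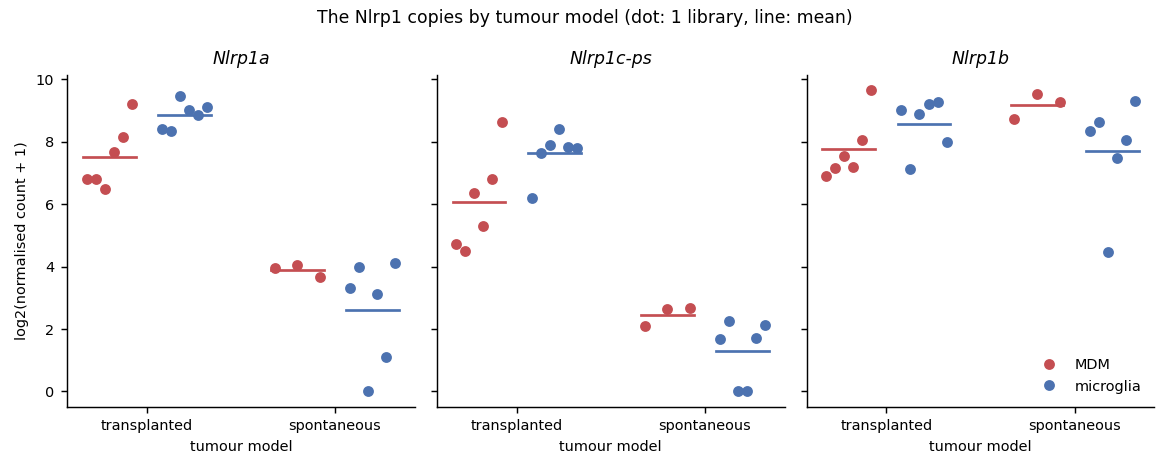
Level of Nlrp1a, Nlrp1c-ps and Nlrp1b as log2(normalised count + 1) in libraries of transplanted (left) and spontaneous (right) tumours, with MDM in red and microglia in blue; dots are libraries and lines are means. Nlrp1a and Nlrp1c-ps were higher in every transplanted library than in any spontaneous library, with 88.4 as the lowest transplanted and 16.2 as the highest spontaneous count of Nlrp1a, while Nlrp1b overlapped.

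The other 9 members did not pass the test by model in microglia. Their log2 fold changes, transplanted over spontaneous, ran from -0.99 ± 0.89 for Nlrc4 to 0.87 ± 0.60 for Nlrp1b. Casp1 was at 0.50 ± 0.26, Aim2 at 0.37 ± 0.24, Nlrp3 at 0.36 ± 0.37 and Il1b at 0.17 ± 0.51. Within the 42 tested genes of 5 pathway lists 2 were called, against 1.84% of all tested genes. Both were higher in transplanted tumours by limma: Casp12, an inflammatory caspase paralogue (3.23 ± 0.62, adjusted p 0.012), and Nek7, the kinase that licenses NLRP3 (0.80 ± 0.20, adjusted p 0.043). Casp12 kept its call with each library left out, and Nek7 kept it in 9 of 21 such fits, with adjusted p-values up to 0.125.

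No member passed the test between microglia of type 2 and type 1 tumours. None of the 10 was called by limma, none had an unadjusted p under 0.05, and limma-voom called 0, while 0.47% of all tested genes were called. The log2 fold changes ran from -0.60 ± 0.51 for Il1b to 0.81 ± 0.60 for Nlrp1b, type 2 over type 1, and Nlrp3 was at -0.04 ± 0.37. Il1b had 2067, 2112 and 1098 normalised counts in type 2 transplanted and 2223, 2595 and 1702 in type 2 spontaneous microglia, against 4073, 4915 and 2421 in type 1 transplanted and 701, 7382 and 2289 in type 1 spontaneous microglia. The type 2 libraries lay within the type 1 range. The interaction of tumour type and model was called for no member (0 of 10 called by limma, 0 with an unadjusted p under 0.05, 0 by limma-voom, and 0.0116% of all tested genes). None of the 42 pathway genes was called by tumour type.

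In MDM of type 1 tumours 5 of 10 members differed by model, against 13.7% of all tested genes (5.79% higher, 7.96% lower). Nlrp1a was the 1 member higher in transplanted tumours. Nlrp3 (-2.53 ± 0.55, adjusted p 0.0047), Il18 (-2.91 ± 0.69, adjusted p 0.0088), Aim2 (-1.16 ± 0.36, adjusted p 0.037) and Gsdmd (-0.98 ± 0.31, adjusted p 0.040) were lower, all log2 fold changes by limma. For Aim2 the counts were 1237, 1125, 1085 and 1357 in transplanted and 1748 and 4116 in spontaneous MDM. For Gsdmd they were 7230.4, 5583, 6693 and 6686 in transplanted and 8027 and 20612 in spontaneous MDM. For all 4 genes no transplanted library reached a spontaneous one. Il1b had a log2 fold change of -2.09 ± 0.76 and did not pass (adjusted p 0.079).

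These MDM differences ran beside others. The microglial markers Tmem119 (852 to 2174 normalised counts in transplanted and 13814 to 33666 in spontaneous type 1 MDM), Sall1 and P2ry12 were called lower as well, at -3.98, -4.73 and -3.31 on the log2 scale, and summed T and NK cell markers were 204957 to 231401 in transplanted and 9444 to 13880 in spontaneous type 1 MDM. The dendritic cell marker Flt3 had 794 to 1865 normalised counts in transplanted and 8124 to 8525 in spontaneous type 1 MDM. Model and these transcripts cannot be told apart in this comparison. Without type 1 spontaneous MDM replicate 2, 0 of 10 members were called, with Nlrp3 at -2.25 (adjusted p 0.079), Il18 at -1.41 (0.32), Aim2 at -0.55 (0.55), Gsdmd at -0.30 (0.69) and Nlrp1a at 2.97 (0.20). Without type 1 spontaneous MDM replicate 1 Nlrp1a was at 2.88 (adjusted p 0.14). Leaving out single type 1 transplanted MDM libraries ended the calls of Nlrp1a and Gsdmd with any of the 4 and of Aim2 with replicates 1, 2 or 3, with adjusted p-values of 0.054 to 0.096. Nlrp1a also missed the threshold without any of 5 transplanted microglia libraries (type 1 replicates 1 and 2, type 2 replicates 1, 2 and 3), at adjusted p-values up to 0.057, and Gsdmd without type 1 replicate 1 or type 2 replicate 1 of these (up to 0.052).

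The difference of the 2 cell types by model in type 1 tumours was called for Nlrp3 among the members (-2.81 ± 0.75, adjusted p 0.040 by limma), against 4.51% of all tested genes. An unadjusted p under 0.05 was reached by 8 of 10 members and by 3257 of all 17216 tested genes. Nlrp3 had 774, 713 and 1072 normalised counts in type 1 transplanted and 671, 1084 and 455 in type 1 spontaneous microglia. The 2 models overlapped in microglia, while all transplanted MDM libraries were below the spontaneous ones. The call ended without any of 13 of the 21 libraries: both type 1 spontaneous MDM libraries, type 1 transplanted MDM replicates 1, 2 and 3, type 1 spontaneous microglia replicates 1 and 3, the 3 type 1 transplanted microglia libraries, type 2 spontaneous microglia replicate 2 and type 2 transplanted microglia replicates 1 and 3. The value was then -3.08 to -2.50 and the adjusted p at most 0.15. The same marker shifts run beside it, and their part was not tested.

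Between tumour types, transplanted MDM could be compared with 2 type 2 and 4 type 1 libraries. Il18 was the 1 member of 10 called, against 5.91% of all tested genes. Its 582 and 4517 normalised counts in type 2 were both above the 135 to 201 in type 1, and the log2 fold change was 3.16 ± 0.69 (adjusted p 0.012 by limma). Il1b was above the type 1 range in both type 2 libraries and had a log2 fold change of 2.49 ± 0.76 (adjusted p 0.060), and Casp1 had 1.16 ± 0.39 (adjusted p 0.088). Without type 2 transplanted MDM replicate 3 the Il18 value was 1.69 (adjusted p 0.44) and 0 members were called; without replicate 1, Nlrp3, Casp1 and Il1b were called beside Il18. Type 2 replicate 1 had summed T and NK cell markers of 243547 and microglial markers of 30076, against 22828 and 231967 in replicate 3 and 204957 to 231401 and 11494 to 19356 in type 1. The T cell gene Cd3e was at 524 normalised counts in type 2 replicate 1, against 11984 to 27570 in type 1, so similar sums hid unlike markers. Tmem119, Sall1 and P2ry12 were called higher in type 2, at 2.54, 4.12 and 3.39 on the log2 scale. The part of these transcripts was not tested, and the value without the libraries rich in T and NK cells cannot be had because it leaves no type 1 library.

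The difference of the 2 cell types by tumour type in transplanted tumours was called for 0 of 10 members by limma and 0 by limma-voom, against 0.749% of all tested genes. Il1b (3.61 ± 1.05, adjusted p 0.10) and Il18 (3.06 ± 0.95, adjusted p 0.13) were the 2 members with an unadjusted p under 0.05, a level that 2698 of all 17216 tested genes reached. Without type 2 transplanted MDM replicate 1, 2 members were called.

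**Figure D4:**
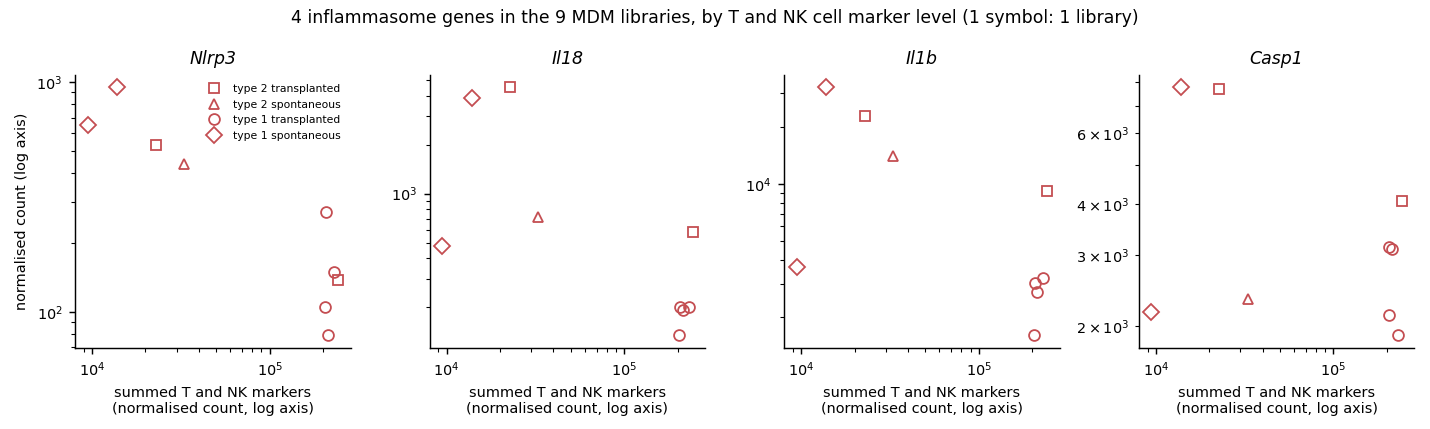
Nlrp3, Il18, Il1b and Casp1 in the 9 MDM libraries (vertical, normalised count, log axis) against the summed T and NK cell markers of the same library (horizontal, log axis); symbols give the tumour class. The 5 libraries at 204957 or more had Nlrp3 at 79.2 to 272 and Il18 at 135 to 582, and the other 4 had Nlrp3 at 439.5 to 951 and Il18 at 479 to 4517. Summed microglial markers, not plotted, split the same libraries, at 11494 to 30076 in the 5 and 91267 to 231967 in the other 4.

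The rest of the pathway was read from 5 lists of 45 genes. Of these 43 were in the table and 42 were tested, with Nlrp6 below the filter and Pydc3 and Pydc4 not used here. In MDM 16 were higher and 8 lower than in microglia, and the median log2 fold change was 0.25. Of all tested genes 23.0% were called higher and 19.8% lower, with a median of 0.07, and the counts of the single lists below stand against the same shares. Without the 5 MDM libraries rich in T and NK cell transcripts 18 of the 24 were still called in the same direction. The 6 that were not were Naip2, Zbp1, Tlr2, Cd14, Mlkl and Nlrc3.

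Among 9 tested sensors and cofactors 4 were higher and 1 was lower in MDM (median log2 fold change 0.98). Mefv, which encodes the sensor pyrin, had 114 to 5021 normalised counts in MDM libraries and 0 to 576 in microglia libraries (5.60 ± 0.97, adjusted p 0.00012 by limma). Nlrp10 had 0 to 104 in MDM and 0 to 11.4 in microglia libraries (4.09 ± 0.77, adjusted p 0.00028). Nlrp12 had no read in any microglia library and a median of 19.4 normalised counts in MDM, with no read in 3 of 9; its mean over MDM libraries was at least 8.47-fold higher than a floor of 3 reads per microglia library (adjusted p 0.0036). Zbp1, a sensor of Z-form nucleic acids, was higher (0.98 ± 0.37) and Naip2, the partner of NLRC4 for secretion-system rods, was lower (-0.66 ± 0.22). The NAIP genes Naip1 (1.80 ± 0.75, adjusted p 0.061), Naip5 (-0.05 ± 0.25) and Naip6 (0.18 ± 0.35) were not called.

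Among 12 upstream receptors, triggers and licensing genes 4 were higher and 5 were lower in MDM (median 0.22). P2rx7, the ATP-gated channel that triggers NLRP3, had 795 to 2962 normalised counts in MDM and 3347 to 8007 in microglia libraries (-1.71 ± 0.21, adjusted p 4.0e-06 by limma), with no overlap. Tlr4 (-1.74 ± 0.24), Cd14 (-1.53 ± 0.38), Tlr2 (-1.48 ± 0.24) and the kinase gene Nek7 (-0.65 ± 0.16) were lower too. Higher in MDM were the pyrin partner Pstpip1 (3.55 ± 0.35), the ATP-release channel Panx1 (1.89 ± 0.18), the redox-linked NLRP3 partner Txnip (1.82 ± 0.20) and the Toll-like receptor adaptor Myd88 (1.19 ± 0.23). Panx1 had 794 to 3843 normalised counts in MDM and 276 to 520 in microglia libraries, again without overlap.

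Among 7 other caspases and executioners Ripk3 (1.40 ± 0.27) and Mlkl (1.92 ± 0.61), kinase and pore former of necroptosis, were higher in MDM and Casp12 was lower (-2.86 ± 0.51), with a list median of 0.14. Casp4, Casp8, Gsdme and Ninj1 did not pass. Among 10 interleukin ligands, receptors and decoys 4 were higher and 1 was lower (median 0.92). Il1a, the sister cytokine that needs no inflammasome cleavage to act, had 63.2 to 2143 normalised counts in MDM and 5542 to 14359 in microglia libraries (-3.73 ± 0.39, adjusted p 4.7e-07 by limma), opposite to Il1b. The decoy receptor Il1r2 was higher in MDM (6.35 ± 0.97), as were the inhibitory receptor Sigirr (3.13 ± 0.31) and the 2 chains of the IL-18 receptor, Il18r1 (6.12 ± 0.66) and Il18rap (5.46 ± 0.96). NK cells carry the IL-18 receptor, and beside it the NK cell marker Ncr1 had 189.7 to 27257.5 normalised counts in MDM and 0 to 100.04 in microglia libraries. Without the 5 libraries rich in T and NK cell transcripts Il18r1 was at 5.02 and Il18rap at 4.78, both still called. The other 4 MDM libraries still had Ncr1 at 190 to 3229 normalised counts, so that fit did not remove NK cell transcripts. The part of NK cells in both receptor genes was not tested. Of 4 tested brakes the protease inhibitor Serpinb1a (5.27 ± 0.65) and Nlrc3 (3.09 ± 0.56) were higher, with a list median of 1.52.

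**Figure D5:**
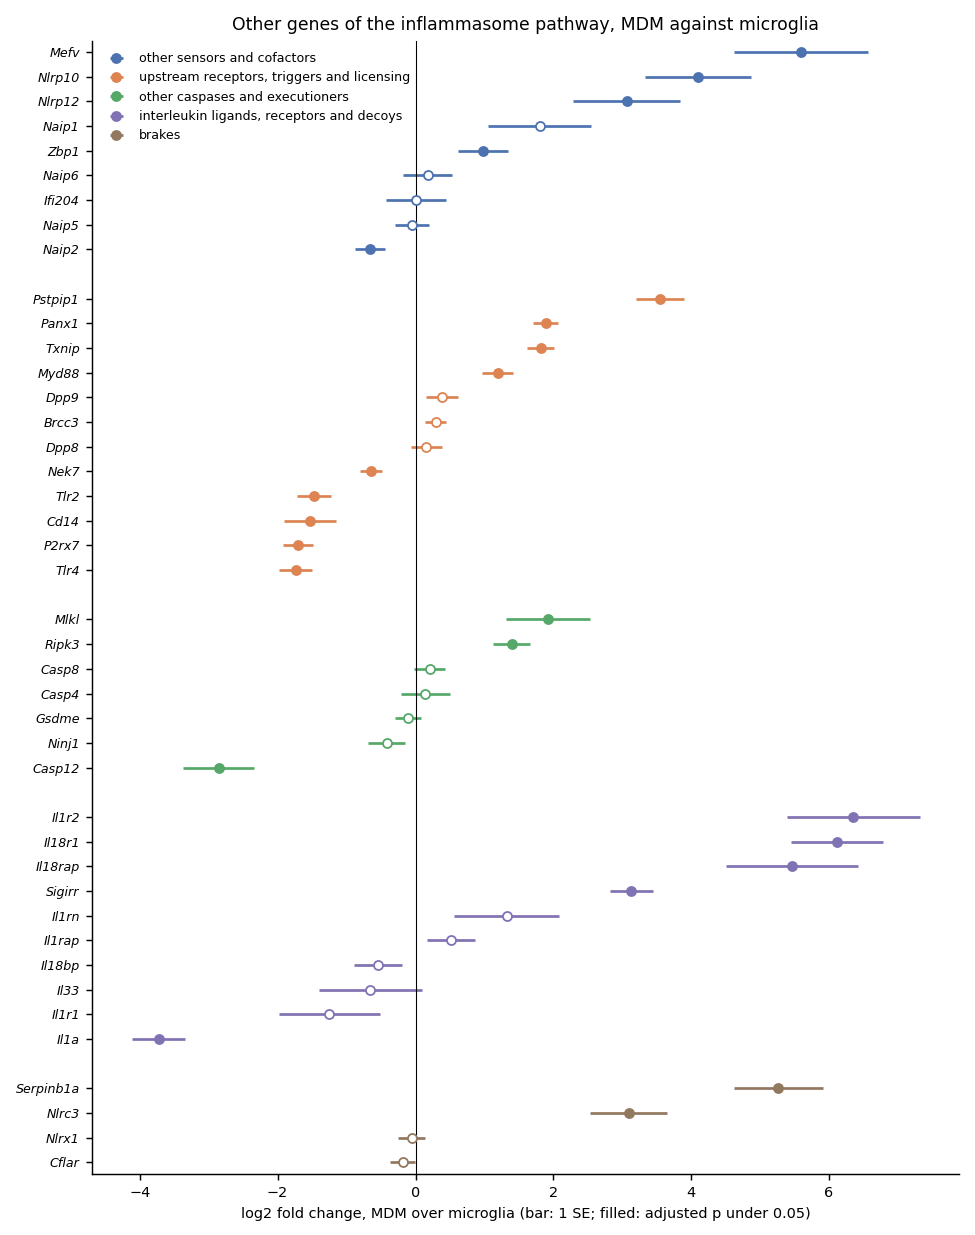
Log2 fold change in MDM over microglia with 1 SE for 42 other genes of the pathway, in 5 lists by colour and ordered by size; filled symbols passed an adjusted p under 0.05. Interleukin receptors and decoys reach 6.35 for Il1r2, while Il1a lies at -3.73.

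By model in type 1 MDM 2 of the 42 pathway genes were higher (Nlrc3 and Panx1) and 9 were lower, among them Cd14 (-3.95 ± 0.70), Ifi204, a DNA sensor of the Aim2 family (-3.54 ± 0.81), Tlr2 (-3.48 ± 0.45) and Il1a (-3.31 ± 0.71). Of all tested genes 5.79% were higher and 7.96% lower. In type 2 over type 1 transplanted MDM 7 were higher, among them Cd14 (3.62 ± 0.70), Casp12 (3.62 ± 0.93) and Ifi204 (2.79 ± 0.81), and Panx1 was lower (-1.15 ± 0.33). Of all 17216 tested genes 509 were higher and 509 lower. The microglial markers Tmem119, Sall1 and P2ry12 moved in the same direction as the larger set in both comparisons, as given above.

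Over the 12 microglia libraries the genes most like a member were sought among 10672 genes with a mean of at least 50 normalised counts, by Pearson's r of log2(normalised count + 1). These libraries come from 4 tumour classes and differ in depth (30787372 to 50365607 reads), and the values are a description. Nlrp3 went most closely with Peli1, an E3 ligase of Toll-like receptor signalling (r = 0.91), Mfsd14a (0.90) and Ccar2 (0.89). Casp1 went with Gng2 (0.92), Snx6 (0.89) and Ccdc112 (0.88). Aim2 went with Cep135 (0.98), Ccar1 (0.97) and Zc3h7a (0.97). Il1b went with Rusf1 (0.93), the liver X receptor gene Nr1h3 (0.88) and Btg1 (0.83), and Il18 with Ube2e1 (0.90), Rpp40 (0.89) and Zfyve19 (0.89). No gene was named for more than 1 of the 5 members.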

How the data were processed

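RNA was taken from macrophages sorted from mouse glioblastomas. Per the labels' protocols, extraction used TRIzol and chloroform with the miRNeasy Micro kit, and cDNA came from a SMART-Seq v4 kit for low input. Per the submitters' processing notes, the tools were STAR 2.7.8a and DESeq2, whose version is not given in the sources used here, with the build mm10. The authors deposited log2 values with a floor of 4.22, the form of DESeq2's variance-stabilising transformation. Normalised counts, which the planned tests needed, were recovered by inverting it in closed form; the plan had expected them in the table. Whole reads came back for 100% of values (within 1e-05), with size factors of 0.62 to 1.55. Depth was 26530069 to 50365607 reads per library, and its counting error is included in the spread between libraries.

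Genes with at least 10 normalised counts in at least 3 libraries were tested (17216) with limma-trend on log2(normalised count + 1). Each of the 8 combinations of cell type, tumour type and model had its own mean, and a comparison gave every group in it the same weight. Calls needed an adjusted p under 0.05 (Benjamini-Hochberg, all tested genes). The method was tested on simulated data. Replicate numbers follow the samples' descriptions, and 3 titles carry another number. Same-numbered MDM and microglia libraries of a tumour class deviated together with correlations of 0.04 to 0.24, not all above 0.1. The main fits therefore did not pair samples by number. Low correlations do not show that such libraries came from different tumours, and the replicate block is the fit that allowed for pairing.

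The members, pathway lists and marker lists were chosen with earlier results of these data known. Named genes are the 10 members, genes called in the pathway lists, 5 lineage genes, and the 3 genes most like each of 5 members. Pathway genes that did not pass and the copies and neighbours of Nlrp1a were named with their values in view. So were the markers Cd3e, Ncr1, Ly6g, Ngp, Flt3, Zbtb46 and Siglech. Alternatives were another pseudocount (8), filters (50 or none), normalizations, limma-voom, array weights, a replicate block, the compared groups alone and libraries left out. Gene positions are from the GENCODE annotation of GRCm38 and promoter sequences from RefSeq on GRCm38.p6, with entries for 9 of the 10 members. The fits ran in R 4.3.3 with limma 3.58.1, and tables were made in python 3.11.15 with pandas 2.3.3.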

Additional observations from a re-analysis of the deposited data

Results flagged for a closer look

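The first of 3 results to look at again is Nlrc4 in type 1 transplanted MDM, where replicate 4 had 198.238 normalised counts and stood apart from the other 3 libraries at 147 to 152 by Dixon's criterion. In the same group Il18 in replicate 2, at 135.338 normalised counts, lay below the other 3 libraries at 192 to 201. The criterion was applied in 10 cases, of which chance flags about 1 in 20. The third is Nlrp3, whose difference by model in type 1 tumours was not the same in MDM and microglia (interaction of -2.806 on the log2 scale, adjusted p 0.040 by limma).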

How the results depend on the processing

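Counts of called members moved by over 1.5 times as follows. The shares of all tested genes called in these other fits are not given here. The counts therefore describe the fits and are not read as results about the members. For MDM against microglia (5 called) 3 were called without the 5 MDM libraries rich in T and NK cell transcripts. For type 2 against type 1 transplanted MDM (1 called) 3 were called after quantile normalization, on the deposited values and with limma-voom, 2 with the replicate block and without the leukocyte-rich microglia libraries, 0 with the compared groups alone, and 0 to 4 with 1 library left out. For type 1 MDM by model (5 called) 2 were called with no filter, 3 after rescaling to the same total, and 0 to 6 with 1 library left out. For MDM against microglia in type 1 spontaneous tumours (2 called) the counts were 1 with no filter, 5 after rescaling, 0 with the compared groups alone, 0 without the T- and NK-rich libraries and 0 to 4 with 1 library left out. In type 1 transplanted tumours (4 called) 1 was called without the leukocyte-rich microglia libraries, which leaves 1 microglia library. In type 2 spontaneous tumours (0 called) 1 was called with pseudocount 8, on the deposited values, with limma-voom and without the leukocyte-rich libraries, 2 with array weights, and 0 to 1 with 1 library left out. In type 2 transplanted tumours (2 called) 1 was called with the compared groups alone, 0 without the T- and NK-rich libraries and 1 to 3 with 1 library left out. For the cell type by tumour type interaction (0 called) 1 was called with the compared groups alone and 0 to 2 with 1 library left out. For the cell type by model interaction (1 called) 0 were called with no filter, after rescaling and without the leukocyte-rich libraries, 3 with array weights and 0 to 5 with 1 library left out. The cause of these changes was not tested, except that fewer samples enter the fits that leave libraries out. Without the T- and NK-rich libraries, MDM against microglia also loses the type 1 transplanted class. Counts for microglia by tumour type (0) and by model (1) and their interaction (0) did not change in any setting. For type 1 MDM by model the summed reads of the 3 Nlrp1 copies gave -0.89, against 2.92 for Nlrp1a alone. The sum is another quantity, chosen after seeing the data. It includes Nlrp1b, with a mean of 148 normalised counts in transplanted and 582 in spontaneous type 1 MDM. Rescaling moved the median of all genes to 0.70 in type 1 transplanted MDM over microglia, against 0.15, and to 0.54, against 0.03, in type 1 MDM by model. With the replicate block Il1b gained a call in type 2 against type 1 transplanted MDM (2.52, adjusted p 0.0496) and in MDM against microglia of type 1 spontaneous tumours (adjusted p 0.042), Nlrp3 gained one in type 2 transplanted tumours (adjusted p 0.039), and no other member's call changed. Groups of 1 and 2 MDM libraries limit what could be detected.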
